A study of Homo sapiens with 18 samples.

Results

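The 39 genes described here encode proteins that mend DNA double-strand breaks and interstrand crosslinks: the homologous recombination, end joining and Fanconi genes BRCA1, BRCA2, BARD1, PALB2, RAD51C, RAD51D, XRCC2, XRCC3, RAD52, RAD54L, RAD54B, EXO1, BLM, WRN, RBBP8, RAD50, NBN, FANCA, FANCB, FANCC, FANCD2, FANCE, FANCF, FANCG, FANCI, FANCL, FANCM, BRIP1, XRCC4, XRCC5, XRCC6, LIG4, NHEJ1, DCLRE1C, POLQ, RMI1, MUS81, EME1 and SLX4. They were chosen by gene symbol, as every probe of the array whose symbol is on this list, and 35 of the 39 had at least 1 such probe, 57 probes of 47231 in all. BRCA2, RBBP8, FANCA and FANCD2 had no probe of that symbol in the probe table used and were not analysed here. RAD50, FANCF, FANCM, XRCC4 and NHEJ1 each had a probe that was not detected above background on any array, so that nothing can be said of their transcripts at this sensitivity. The remaining 30 genes, read by 42 probes kept after a filter on detection, were tested among 12055 genes.

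The measurements come from 18 Illumina bead arrays. The RNA was that of HEK293, a line from human embryonic kidney. In all of them the cells' own p65, the NF-kB subunit encoded by RELA, had been targeted with siRNA, and an siRNA-resistant, HA-tagged p65 had been delivered by lentivirus, either wild type (wt) or with the S547A substitution. Cells of both lines were left untreated or received etoposide for 4 h or 8 h, at a dose that the labels do not state, which gives 6 groups of 3 arrays from experiments that the series text calls independent. Etoposide traps topoisomerase II on DNA and so leaves strand breaks. All groups compared thus carry the silencing and the transduction, and the promoter of the lentiviral construct and whether a line is 1 clone or a pool are not given in the sources used here.

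Each array detected 35.8% to 39.2% of its probes. RELA, which was read without distinction between the silenced and the supplied transcript, had mean log2 levels of 7.80 ± 0.32 (SD, n = 3) in untreated wt cells and 8.86 ± 0.20 in untreated S547A cells, of 9.43 ± 0.05 and 10.16 ± 0.13 at 4 h, and of 9.22 ± 0.03 and 9.69 ± 0.10 at 8 h. The mean RELA level was higher in S547A than in wt cells in each of the 3 conditions. In each line it was also higher at 4 h and 8 h than in untreated cells. Its part in any difference between the lines or in any change with etoposide was not tested. Of markers known in HEK293 cells, VIM, NEFL, NEFM and KRT18 were detected on 18 arrays, KRT8 on 17 and PAX2 on 1. Of blood markers, PTPRC and CD3E were detected on 0 arrays, HBB on 1 and CD14 on 15. Of fibroblast markers, PDGFRB was detected on 0, DCN on 2, COL1A2 on 3, LUM on 9 and COL1A1 on 13, and of endothelial markers CDH5 and KDR on 0 and PECAM1 on 2.

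A double-strand break is repaired by joining its ends or by copying an intact sister. In end joining the Ku heterodimer (XRCC5 and XRCC6) caps the ends and LIG4 with XRCC4 seals them, while DNA polymerase theta (POLQ) anneals short repeats. In homologous recombination the MRN complex (RAD50, NBN and MRE11) and EXO1 resect the ends, BRCA1 with BARD1, PALB2 and BRCA2 prepares the resected strand for pairing, and RAD51C, XRCC3 and the RAD54 proteins help it find and copy its partner. The Fanconi core complex ubiquitinates the pair FANCD2 and FANCI at crosslinks and stalled forks, and BLM with RMI1, MUS81 with EME1, and SLX4 resolve the joined molecules that recombination leaves. Recombination needs a sister chromatid and is used in S and G2 phase, and the transcription of many of its genes follows the cell cycle.

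The promoters of the 3 genes with the largest called increase in both lines (EXO1, POLQ and BARD1) and of the Ku gene that fell in both lines (XRCC6) are shown because the results turn on these genes. Each sequence is the RefSeq window of assembly GRCh38.p14 from 250 bases before to 50 bases after the annotated start, read 5′ to 3′ on the gene's strand. Capitals mark a match to the E2F letters searched for.
EXO1: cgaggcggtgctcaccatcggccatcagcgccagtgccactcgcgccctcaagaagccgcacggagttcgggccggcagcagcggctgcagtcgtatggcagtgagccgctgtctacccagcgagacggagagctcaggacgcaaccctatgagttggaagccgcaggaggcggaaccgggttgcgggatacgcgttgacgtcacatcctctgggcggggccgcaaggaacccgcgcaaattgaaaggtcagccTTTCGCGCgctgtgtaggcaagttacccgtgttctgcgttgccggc
BARD1: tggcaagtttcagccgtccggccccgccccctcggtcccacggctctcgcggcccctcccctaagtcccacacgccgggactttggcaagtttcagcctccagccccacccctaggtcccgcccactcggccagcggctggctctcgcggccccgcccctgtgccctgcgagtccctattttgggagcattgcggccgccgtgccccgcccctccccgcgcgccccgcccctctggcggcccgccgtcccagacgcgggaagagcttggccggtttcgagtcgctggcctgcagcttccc
POLQ: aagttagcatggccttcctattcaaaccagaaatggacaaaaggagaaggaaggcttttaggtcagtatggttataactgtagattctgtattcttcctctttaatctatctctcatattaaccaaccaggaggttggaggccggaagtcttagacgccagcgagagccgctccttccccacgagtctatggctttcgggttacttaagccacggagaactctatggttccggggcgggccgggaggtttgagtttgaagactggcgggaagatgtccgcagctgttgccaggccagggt
XRCC6: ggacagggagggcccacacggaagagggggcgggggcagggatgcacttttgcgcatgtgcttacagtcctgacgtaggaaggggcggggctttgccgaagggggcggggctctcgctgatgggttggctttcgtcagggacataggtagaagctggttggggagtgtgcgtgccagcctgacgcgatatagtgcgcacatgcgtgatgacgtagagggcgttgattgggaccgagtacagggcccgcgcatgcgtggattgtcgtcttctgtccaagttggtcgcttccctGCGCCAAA
The windows lie at chr1:241847954-241848253 on the plus strand for EXO1, chr2:214809634-214809933 on the minus strand for BARD1, chr3:121545939-121546238 on the minus strand for POLQ and chr22:41621045-41621344 on the plus strand for XRCC6.

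The E2F search used the letters TTTCCCGC, TTTGGCGC, TTTCGCGC and TTTGCCGC on both strands. EXO1 had TTTCGCGC at base 5 after its start, and XRCC6 had TTTGGCGC on the opposite strand at base 43, where the printed strand reads GCGCCAAA. BARD1 and POLQ had none of these letters in the window. Of the 34 genes on the list with a promoter in the table, 6 had a match (17.6%), namely EXO1, XRCC6, XRCC2, FANCC, FANCA and FANCD2, against 1164 of 35116 promoters in all (3.31%) and 13 of 18 promoters of a list of G1/S genes (72.2%). The letters TTTGAA of the cell cycle homology region, a mitotic promoter element, were found in 3 of the 34 (8.82%, against 15.2% of all promoters), and POLQ held them at bases -230 and 4. CCAAT was found in 13 of the 34 (38.2%, against 34.6%), and the NF-kB site in 2, NHEJ1 and EME1 (5.88%, against 11.3%). These matches describe letters and not binding. Of the tested genes with the E2F letters, EXO1 was called higher and XRCC6 lower at 8 h in both lines. XRCC2 and FANCC were not called in any comparison on the brightest probe. Any part of these letters in the changes was not tested.

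After 8 h of etoposide, more of the repair genes had risen than fallen in both lines. In wt cells 11 of 30 were called at 8 h (36.7%, against 29.7% of all 12055 genes), 7 of them higher and 4 lower, where a call means an adjusted p under 0.05 in limma, with Benjamini-Hochberg adjustment over all genes. In S547A cells 13 of 30 were called at 8 h (43.3%, against 30.5%), 11 higher and 2 lower. The share of genes called higher was 16.5% in wt and 16.1% in S547A cells over all genes, and the share called lower was 13.2% and 14.3%. The median log2 change of the 30 genes at 8 h was 0.24 in wt and 0.11 in S547A cells, beside 0.00 and -0.01 over all genes. A call with at least a doubling was made for 2 of the genes in wt cells, EXO1 and POLQ, and for 3 in S547A cells, which adds RAD54B; over all genes 6.01% and 6.11% reached that size.

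At 4 h few of them had moved. In wt cells 4 of 30 were called, all higher (13.3%, against 10.4% of all genes, 6.25% higher and 4.17% lower), namely BARD1, XRCC3, RAD54L and EXO1. In S547A cells 2 were called, RAD54L and EXO1, both higher (6.67%, against 9.51%, 5.67% higher and 3.83% lower). From 4 h to 8 h, 5 genes rose and 1 fell in wt cells (20%, against 13.4% of all genes, 8.1% higher and 5.32% lower), and 7 rose and 1 fell in S547A cells (26.7%, against 15.4%, 8.28% higher and 7.13% lower). In these bulk samples a change within each cell and a change in the share of cells that carry a transcript cannot be told apart.

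Scaling the arrays by their medians instead of by quantiles gave all genes a median log2 change of -0.11 in wt at 4 h, 0.10 and 0.11 in S547A at 4 h and 8 h, 0.17 in wt from 4 h to 8 h, -0.22 and -0.16 for S547A against wt in untreated cells and at 8 h, and 0.22 for the line difference in the 4 h response. Calls over all genes then split into 267 higher and 544 lower in wt at 4 h (753 and 503 with quantiles), 2024 and 947 in wt at 8 h (1994 and 1589), 706 and 135 in S547A at 4 h (684 and 462), and 2341 and 694 in S547A at 8 h (1945 and 1729). Between 4 h and 8 h the split became 1639 and 131 in wt (976 and 641) and 701 and 342 in S547A cells (998 and 859). Of the repair genes, 10 were then called higher and 2 lower in wt at 8 h, and 11 higher and 1 lower in S547A cells. Increases thus outnumbered decreases at 8 h under both scalings, among the repair genes and also over all genes. At 4 h the scaling left 1 call in wt cells, EXO1, and gave 4 in S547A cells.

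**Figure D1:**
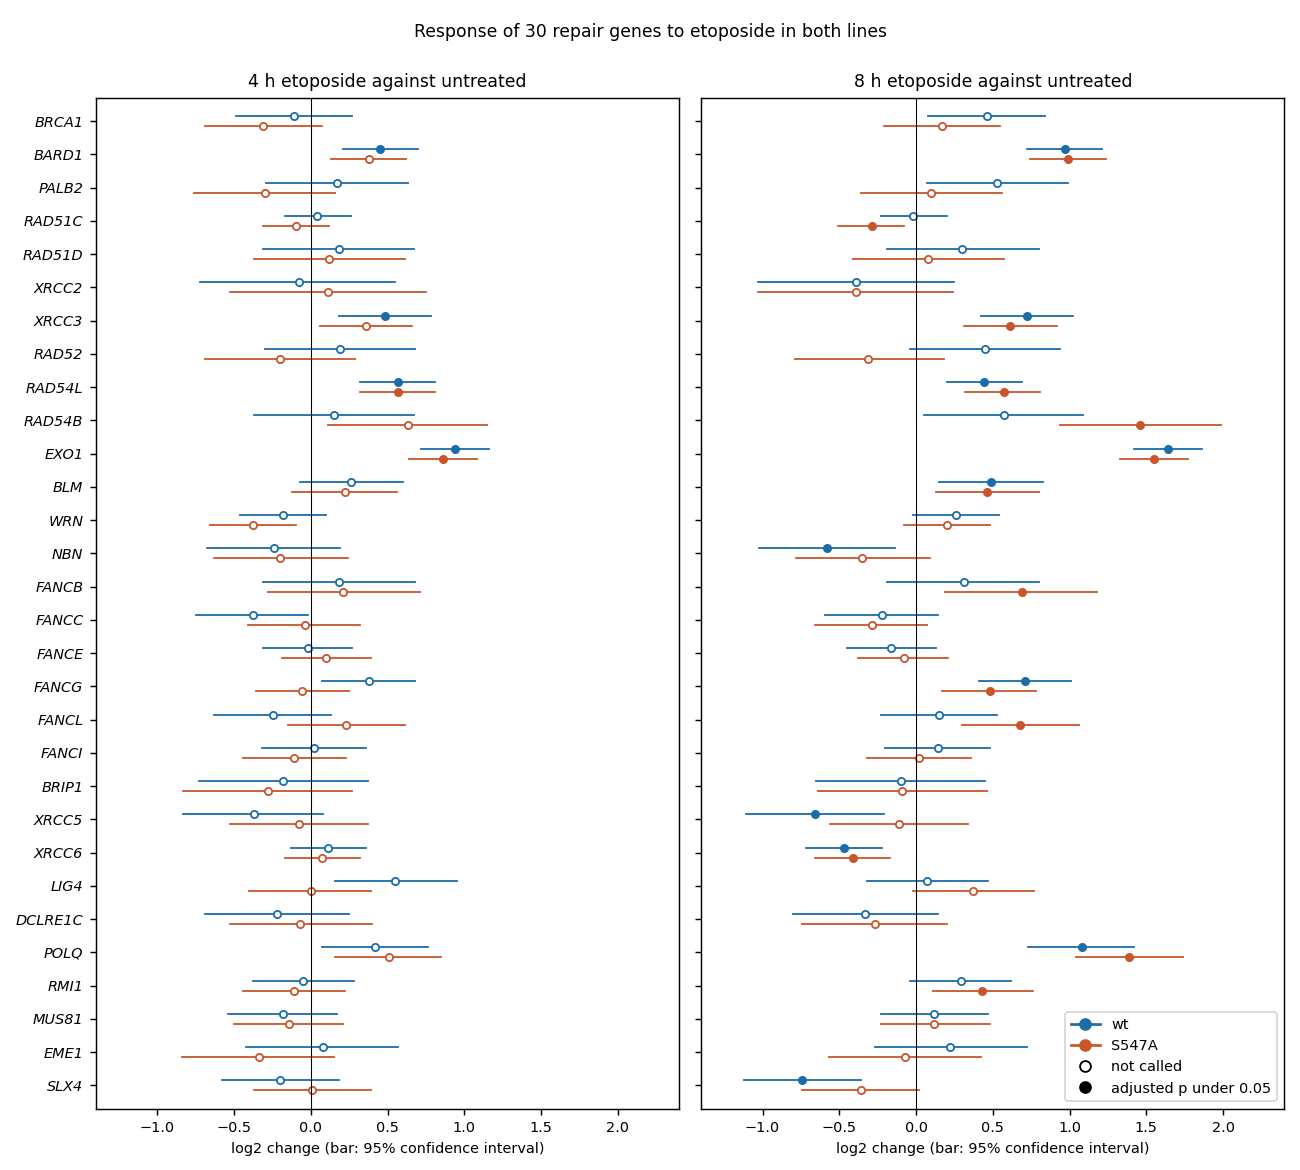
Log2 change of each of the 30 tested repair genes after 4 h (left) and 8 h (right) of etoposide against untreated cells in wt (blue) and S547A (orange) cells, with 95% confidence intervals and filled circles for an adjusted p under 0.05. EXO1 lies farthest to the right in both panels of wt cells, at 0.94 and 1.64, and at 8 h the filled circles on the right outnumber those on the left; RAD52, BRIP1 and FANCC were not detected in some groups and lie near background.

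The resection genes held the most strongly changed gene of the list. EXO1 is a nuclease that chews back the 5′ strand at a break and also acts in mismatch repair. Its log2 level was 9.58, 9.44 and 9.55 on the untreated wt arrays, 10.45, 10.43 and 10.51 at 4 h and 11.13, 11.14 and 11.22 at 8 h. The S547A arrays gave 9.59, 9.48 and 9.59 untreated, 10.41, 10.46 and 10.37 at 4 h and 10.97, 11.27 and 11.06 at 8 h. Every 4 h array lay above every untreated array and below every 8 h array, in both lines. EXO1 thus rose in wt cells, by a log2 of 0.94 ± 0.10 (SE) after 4 h and 1.64 ± 0.10 after 8 h, a 3.12-fold increase at the later time, and by 0.86 ± 0.10 and 1.55 ± 0.10 in S547A cells, a 2.93-fold increase (limma adjusted p = 1.68e-05, 7.61e-09, 4.47e-05 and 1.57e-08). The further rise from 4 h to 8 h was 0.70 in wt and 0.69 in S547A cells (adjusted p = 0.000485 and 0.000516). A second EXO1 probe gave 1.05 and 1.76 in wt cells and 1.04 and 1.71 in S547A cells, all called when the 16005 kept probes with 1 symbol were tested one by one.

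BLM and WRN are RecQ helicases, and BLM unwinds DNA for long-range resection. BLM read 8.36, 8.16 and 8.19 in untreated wt cells and 8.86, 8.75 and 8.58 at 8 h, and it rose by 0.49 ± 0.16 in wt (limma adjusted p = 0.0279) and by 0.46 ± 0.16 in S547A cells (0.0362). In S547A cells the groups met at 8.59, since 1 untreated array read as high as the lowest 8 h array while another read 7.80. The BLM call was lost in wt without untreated replicate 2 or 3 or 8 h replicate 1 or 2 (adjusted p 0.0723 to 0.1), and in S547A cells without untreated replicate 1 or 3 or any 8 h array (0.0522 to 0.213). Without untreated replicate 1 the S547A change was 0.25 in place of 0.46.

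WRN was called between the treated times. Its levels were 8.75, 8.50 and 8.94 in untreated wt cells, 8.41, 8.65 and 8.59 at 4 h and 9.02, 8.93 and 9.02 at 8 h. The S547A arrays read 8.76, 8.81 and 8.72, then 8.26, 8.54 and 8.33, then 8.87, 9.18 and 8.83. All 4 h arrays lay below all 8 h arrays in each line, and the rise from 4 h to 8 h was 0.44 ± 0.13 in wt and 0.58 ± 0.13 in S547A cells (limma adjusted p = 0.0367 and 0.00788). Against untreated cells the change was -0.18 at 4 h and 0.26 at 8 h in wt, and -0.38 and 0.20 in S547A cells, none of them called (adjusted p = 0.465, 0.16, 0.0866 and 0.289), although in S547A cells neither treated group overlapped the untreated one. The wt call was lost without any 1 of its 6 arrays (adjusted p 0.0545 to 0.145), and with the mean of kept probes the wt value was 0.28 (0.114). A dim second WRN probe, detected on 3 arrays and on none of the untreated S547A arrays, gives no fold, although its p at 8 h in S547A cells passed the threshold (adjusted p = 0.0486 over probes).

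NBN is the MRN subunit that recruits the ATM kinase to a break. It read 8.18, 8.22 and 8.46 in untreated wt cells, 7.81, 8.13 and 8.19 at 4 h and 7.62, 7.75 and 7.76 at 8 h. NBN in S547A cells read 8.04, 8.27 and 8.43, then 7.60, 8.37 and 8.17, then 7.43, 8.20 and 8.06, with the groups overlapping. The brightest NBN probe fell by 0.58 ± 0.21 on the log2 scale at 8 h in wt cells (limma adjusted p = 0.043), a call lost without any 1 of the 6 arrays (0.0622 to 0.143) and under median scaling (0.148). In S547A cells the change was -0.35 ± 0.21 (adjusted p = 0.227), and the S547A response minus the wt response, 0.23 with a 95% confidence interval from -0.38 to 0.85, was not called. A dim second NBN probe, detected on 7 arrays and on none of the untreated or 8 h S547A arrays, gave -0.23 at 8 h in wt cells, which was not called (adjusted p = 0.388 over probes).

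Of the 10 tested recombination genes, 3 rose and 0 fell at 8 h in wt cells and 4 rose and 1 fell in S547A cells. Over all genes 16.5% rose and 13.2% fell in wt cells, and 16.1% rose and 14.3% fell in S547A cells. These counts use the brightest probe of each gene, and other RAD51C probes fell in wt cells, as given below. BARD1 is the partner with which BRCA1 forms a ubiquitin ligase. It read 7.93, 8.00 and 7.91 in untreated wt cells, 8.21, 8.53 and 8.48 at 4 h and 8.87, 8.91 and 8.96 at 8 h. The S547A values were 7.89, 7.84 and 7.91 untreated, 8.41, 8.18 and 8.17 at 4 h and 8.77, 8.80 and 9.04 at 8 h. The 3 groups were in the order of time without overlap in each line. BARD1 rose at 8 h by 0.97 ± 0.12 in wt and 0.99 ± 0.12 in S547A cells (limma adjusted p = 1.1e-05 and 8.15e-06), that is 1.95-fold and 1.99-fold. At 4 h it rose by 0.45 ± 0.12 in wt cells (adjusted p = 0.0182), a call lost without untreated replicate 1 or 3 or 4 h replicate 2 or 3 (0.058 to 0.0864) and under median scaling (0.363), and the 4 h change in S547A cells was 0.38 ± 0.12 (0.0531). From 4 h to 8 h it rose by 0.51 in wt and 0.61 in S547A cells (adjusted p = 0.00921 and 0.00238), the first of which was lost without wt 4 h replicate 1 (0.0529).

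BRCA1, which recruits PALB2, read 8.74, 8.78 and 8.53 in untreated wt cells, 8.35, 8.69 and 8.67 at 4 h and 9.30, 9.24 and 8.89 at 8 h. In S547A cells it read 8.96, 8.93 and 8.31, then 8.62, 8.14 and 8.51, then 9.00, 8.91 and 8.81. Its single call was a rise of 0.57 ± 0.18 from 4 h to 8 h in wt cells (limma adjusted p = 0.0442), which was lost without any of the 3 arrays of 4 h or without 8 h replicate 1 or 2 (0.0659 to 0.173). Against untreated cells the 8 h change was 0.46 ± 0.18 in wt (0.0651) and 0.17 ± 0.18 in S547A cells (0.52). A second BRCA1 probe was called from 4 h to 8 h in both lines (0.47 and 0.61, adjusted p over probes 0.0359 and 0.00785) and at 8 h in S547A cells (0.45, 0.0217).

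XRCC3 works in a complex with RAD51C during recombination. Its levels were 7.44, 7.59 and 7.45 in untreated wt cells, 7.97, 7.92 and 8.03 at 4 h and 8.30, 8.29 and 8.05 at 8 h. In S547A cells they were 7.51, 7.84 and 7.41, then 7.96, 7.84 and 8.05, then 7.91, 8.29 and 8.41. The 8 h arrays lay above the untreated ones in both lines, and XRCC3 rose by 0.72 ± 0.14 in wt and 0.61 ± 0.14 in S547A cells (limma adjusted p = 0.0011 and 0.00349). The 4 h rise in wt cells, 0.48 ± 0.14 (adjusted p = 0.0406), was lost without any 1 of the 6 arrays (0.0631 to 0.119) and under median scaling (0.275).

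RAD51C itself was read by 3 kept probes that differed. The brightest, which stands for the gene, spanned 9.96 to 10.37 over all arrays and fell by 0.29 ± 0.10 on the log2 scale at 8 h in S547A cells (limma adjusted p = 0.0376) with a change of -0.02 in wt cells (0.915). That call was lost without any of the 3 untreated arrays or without 8 h replicate 1 or 3 (0.0616 to 0.114) and under median scaling (0.524). A second probe read 9.14, 9.09 and 8.86 in untreated wt cells, 8.22, 8.72 and 8.75 at 4 h and 8.61, 8.48 and 8.52 at 8 h, and in S547A cells 9.01, 9.15 and 9.16, then 8.59, 8.62 and 8.63, then 8.61, 8.59 and 8.67. On that probe all treated arrays lay below all untreated ones, with called changes at 4 h and 8 h of -0.47 and -0.50 in wt and -0.49 and -0.48 in S547A cells (adjusted p over probes 0.0384, 0.0111, 0.0323 and 0.0124). At 8 h the third probe gave -0.57 in wt and -0.49 in S547A cells (0.00881 and 0.0201). Which transcripts of RAD51C each probe reads was not analysed here.

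RAD54L and RAD54B are motor proteins that remodel DNA during strand pairing. RAD54L read 8.89, 8.95 and 9.05 in untreated wt cells, 9.47, 9.72 and 9.40 at 4 h and 9.42, 9.29 and 9.51 at 8 h. Its S547A arrays read 9.08, 9.11 and 8.88, then 9.59, 9.54 and 9.66, then 9.52, 9.68 and 9.59. Treated and untreated arrays did not overlap at either time in either line. RAD54L had risen by 0.57 ± 0.12 at 4 h in both lines (limma adjusted p = 0.00417 in wt, 0.00437 in S547A) and stood at 0.44 and 0.57 above untreated at 8 h (0.00777 and 0.00125), with 8 h minus 4 h differences of -0.12 and 0.00, neither called. Median scaling ended the 4 h call in wt cells (0.131).

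RAD54B read 6.75, 6.84 and 7.38 in untreated wt cells, 7.23, 6.86 and 7.33 at 4 h and 7.36, 7.25 and 8.06 at 8 h, with overlap between groups. In S547A cells it read 6.33, 6.80 and 7.09 untreated, 6.99, 7.61 and 7.51 at 4 h and 8.14, 8.06 and 8.41 at 8 h. There the 8 h arrays lay above all others, and RAD54B rose 2.76-fold, by 1.46 ± 0.25 (limma adjusted p = 0.000258), beside 0.57 ± 0.25 in wt cells (0.0952). The rise of 0.83 ± 0.25 from 4 h to 8 h in S547A cells (0.0298) was lost without 4 h replicate 1 or 8 h replicate 1 or 3 (0.0588 to 0.132).

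The other tested recombination genes, PALB2, RAD51D, XRCC2 and RAD52, were not called in any comparison. The 8 h changes of PALB2, RAD51D and XRCC2 ran from -0.39 (XRCC2) to 0.53 (PALB2, adjusted p = 0.0775) in wt cells and from -0.39 (XRCC2) to 0.10 (PALB2) in S547A cells. RAD52, which anneals single strands, was detected on 3 of 18 arrays, 2 at 8 h in wt cells and 1 in untreated S547A cells, so its values lie near background and no difference is given. A second, dim XRCC2 probe, detected on 16 arrays, was called lower in S547A cells, at -0.66 at 4 h and -0.58 at 8 h (adjusted p over probes 0.0261 and 0.0195), beside 0.23 and 0.16 in wt cells. On it the untreated S547A arrays read 5.66, 6.40 and 5.78 and the untreated wt arrays 5.26, 5.51 and 5.02. The treated S547A arrays read 5.25 to 5.54. A second RAD51D probe, detected on 16 arrays, gave -0.69 at 4 h in S547A cells (0.1), where the brightest gave 0.12, and neither was called.

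Of the 5 tested Fanconi core genes, 1 rose at 8 h in wt cells and 3 in S547A cells, beside 16.5% and 16.1% of all genes, and 0 fell. The difference between these responses was called for 0 of the 5. FANCG, a core subunit, read 7.96, 8.00 and 8.08 in untreated wt cells, 8.23, 8.39 and 8.56 at 4 h and 8.74, 8.65 and 8.78 at 8 h. In S547A cells it read 8.45, 8.23 and 8.36, then 8.46, 8.08 and 8.33, then 9.13, 8.77 and 8.57. The wt groups were ordered by time without overlap, while the untreated S547A arrays already lay above the untreated wt arrays. FANCG rose at 8 h by 0.71 ± 0.14 in wt and 0.48 ± 0.14 in S547A cells (limma adjusted p = 0.00127 and 0.018), and by 0.53 ± 0.14 from 4 h to 8 h in S547A cells (0.0188). The S547A call at 8 h was lost without untreated replicate 2 or 8 h replicate 1 (0.0697 and 0.102), and that from 4 h to 8 h without 4 h replicate 2 or 8 h replicate 1 (0.0765 and 0.0931).

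FANCL is the ubiquitin ligase of the core complex. It read 8.70, 8.53 and 8.77 in untreated wt cells, 8.28, 8.40 and 8.58 at 4 h and 8.68, 8.63 and 9.13 at 8 h. The S547A levels were 8.58, 8.27 and 8.80 untreated, 8.45, 8.90 and 9.00 at 4 h and 9.19, 9.06 and 9.44 at 8 h. All 8 h arrays of S547A cells lay above its untreated and 4 h arrays, and FANCL rose by 0.68 ± 0.18 (limma adjusted p = 0.00824), beside 0.15 ± 0.18 in wt cells (0.6). From 4 h to 8 h the S547A change of 0.45 was not called (0.106), but it passed the threshold with the replicate number as a block (0.0316).

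FANCB is a scaffold of the same complex, encoded on the X chromosome. Its brightest probe read 6.22, 6.11 and 5.94 in untreated wt cells, 5.98, 6.25 and 6.60 at 4 h and 6.22, 6.33 and 6.64 at 8 h, and in S547A cells 6.23, 6.40 and 6.11, then 5.77, 6.63 and 6.98, then 6.85, 6.91 and 7.06. FANCB rose by 0.69 ± 0.23 at 8 h in S547A cells (limma adjusted p = 0.0338), a call lost without untreated replicate 1 or 3 or any 8 h array (0.0548 to 0.0998), beside 0.31 ± 0.23 in wt cells (0.368). A second FANCB probe, detected on 17 arrays, read 5.51, 5.41 and 5.44 in untreated wt cells, 5.74, 6.02 and 6.16 at 4 h and 6.40, 6.45 and 6.36 at 8 h. It was called higher at 8 h in both lines, by 0.95 in wt and 1.23 in S547A cells (adjusted p over probes 0.002 and 0.00022), and at 4 h in S547A cells by 0.85 (0.0144). The choice of probe therefore decides whether FANCB counts as called in wt cells.

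FANCC, FANCE, FANCI and BRIP1 were not called in any comparison. FANCI forms the pair that the core complex ubiquitinates and BRIP1 is a helicase that binds BRCA1. The changes of FANCE and FANCI against untreated cells lay between -0.16 (FANCE at 8 h in wt) and 0.14 (FANCI at 8 h in wt). FANCC was detected on 8 arrays, none of them at 4 h in wt cells. With those 4 h arrays raised to the lowest detected level, the estimate was 1.17-fold lower than in untreated cells. The measured change was not called (limma adjusted p = 0.188). BRIP1 was detected on 3 arrays, none of them treated, so that no fold is given.

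Of the 5 tested end joining genes, 1 rose and 2 fell at 8 h in wt cells, and 1 rose and 1 fell in S547A cells. The shares over all genes were 16.5% higher and 13.2% lower in wt, and 16.1% higher and 14.3% lower in S547A cells. POLQ, the polymerase of theta-mediated joining, read 9.23, 8.77 and 9.08 in untreated wt cells, 9.25, 9.35 and 9.72 at 4 h and 9.95, 9.94 and 10.40 at 8 h. In S547A cells it read 8.71, 8.91 and 8.60, then 9.18, 9.29 and 9.28, then 9.95, 10.19 and 10.26. The groups were ordered by time without overlap in both lines. POLQ rose 2.11-fold at 8 h in wt cells, by 1.08 ± 0.16, and 2.62-fold in S547A cells, by 1.39 ± 0.16 (limma adjusted p = 0.00011 and 8.15e-06). Its changes at 4 h were 0.42 (0.127) and 0.51 (0.064). From 4 h to 8 h it rose by 0.66 in wt and 0.88 in S547A cells (0.0144 and 0.00207), and the wt call was lost without 4 h replicate 1 or 2 or 8 h replicate 3 (0.0527 to 0.0754).

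XRCC6 encodes Ku70, the smaller Ku subunit. Its levels were 11.36, 11.57 and 11.64 in untreated wt cells, 11.61, 11.71 and 11.59 at 4 h and 11.12, 11.00 and 11.04 at 8 h. In S547A cells they were 11.57, 11.59 and 11.26, then 11.55, 11.50 and 11.60, then 11.02, 11.17 and 10.99. All 8 h arrays lay below all untreated and 4 h arrays of the same line. XRCC6 fell at 8 h by 0.47 ± 0.12 on the log2 scale in wt cells and by 0.41 ± 0.12 in S547A cells (limma adjusted p = 0.00551 and 0.012), with changes of 0.11 and 0.07 at 4 h that were not called. The S547A call was lost without untreated replicate 1 or 2 (0.0515 and 0.055). A second probe gave -0.65 and -0.74 at 8 h, both called.

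XRCC5 encodes the partner subunit Ku80. It read 9.69, 9.73 and 9.76 in untreated wt cells, 9.14, 9.31 and 9.61 at 4 h and 8.95, 8.62 and 9.64 at 8 h. In S547A cells it read 9.52, 9.59 and 9.79, then 9.33, 9.45 and 9.86, then 9.40, 9.40 and 9.77, with overlap. XRCC5 fell by 0.66 ± 0.21 on the log2 scale at 8 h in wt cells (limma adjusted p = 0.0274), although 1 of the 8 h arrays, at 9.64, lay just under the lowest untreated array, at 9.69. The call was lost without any untreated array or without 8 h replicate 1 or 2 (0.0571 to 0.159) and under median scaling (0.104). In S547A cells the change was -0.11 ± 0.21 (0.745).

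LIG4, the ligase of the pathway, and DCLRE1C, the nuclease Artemis, were not called. LIG4 changed by 0.55 at 4 h in wt cells (adjusted p = 0.0722) and by 0.00 in S547A cells, and was detected on 16 arrays. DCLRE1C had changes from -0.33 to -0.07 against untreated cells. A second DCLRE1C probe was detected on 4 arrays and on none of the untreated ones. With the untreated arrays raised to the lowest detected level, the estimate was 1.23-fold higher at 8 h in wt cells. The measured change was not called (limma adjusted p = 0.163 over probes).

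Among the 4 junction genes, 1 fell at 8 h in wt cells and 1 rose in S547A cells. That is 25% called in each line, against 29.7% of all genes in wt and 30.5% in S547A cells. SLX4, the scaffold that binds several nucleases, was the only one called lower. It read 7.59, 7.23 and 7.46 in untreated wt cells, 7.00, 7.42 and 7.27 at 4 h and 6.77, 6.67 and 6.62 at 8 h. The S547A arrays read 7.10, 7.17 and 7.03, then 7.32, 7.01 and 7.00, then 6.32, 6.71 and 7.18. SLX4 fell by 0.74 ± 0.18 on the log2 scale at 8 h in wt cells (limma adjusted p = 0.00491), while in S547A cells, where 1 array at 8 h read as high as the untreated ones, the change was -0.36 ± 0.18 (0.148). RMI1, which works with BLM, rose by 0.43 ± 0.16 at 8 h in S547A cells (0.0431) and by 0.55 ± 0.16 from 4 h (0.0246), beside 0.29 at 8 h in wt cells (0.19). The first of these calls was lost without untreated replicate 2 or 3 or any 8 h array (0.0603 to 0.139) and the second without 4 h replicate 3 or 8 h replicate 1 or 3 (0.0606 to 0.117). A second RMI1 probe was called in wt cells at 8 h instead (0.59, adjusted p over probes 0.0417). The nuclease pair MUS81 and EME1 was not called, with changes from -0.34 to 0.22 against untreated cells.

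Of the 44 calls of a gene in a comparison, 17 were lost with the compared groups fitted alone (adjusted p 0.0513 to 0.14), which estimates the spread from fewer arrays. They were BARD1 at 4 h and XRCC5 at 8 h in wt cells, RAD54L at 4 h and RAD51C, BLM, FANCG, XRCC6 and RMI1 at 8 h in S547A cells, BRCA1, BARD1, WRN and POLQ from 4 h to 8 h in wt cells, and BARD1, WRN, FANCG, XRCC6 and RMI1 from 4 h to 8 h in S547A cells. Without the detection filter the calls of NBN, FANCB and BRCA1 and that of RMI1 at 8 h were lost (0.0545 to 0.0658), the mean of kept probes also ended the last of these (0.0791), and that of XRCC3 at 4 h was lost with every probe tested separately (0.0502).

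**Figure D2:**
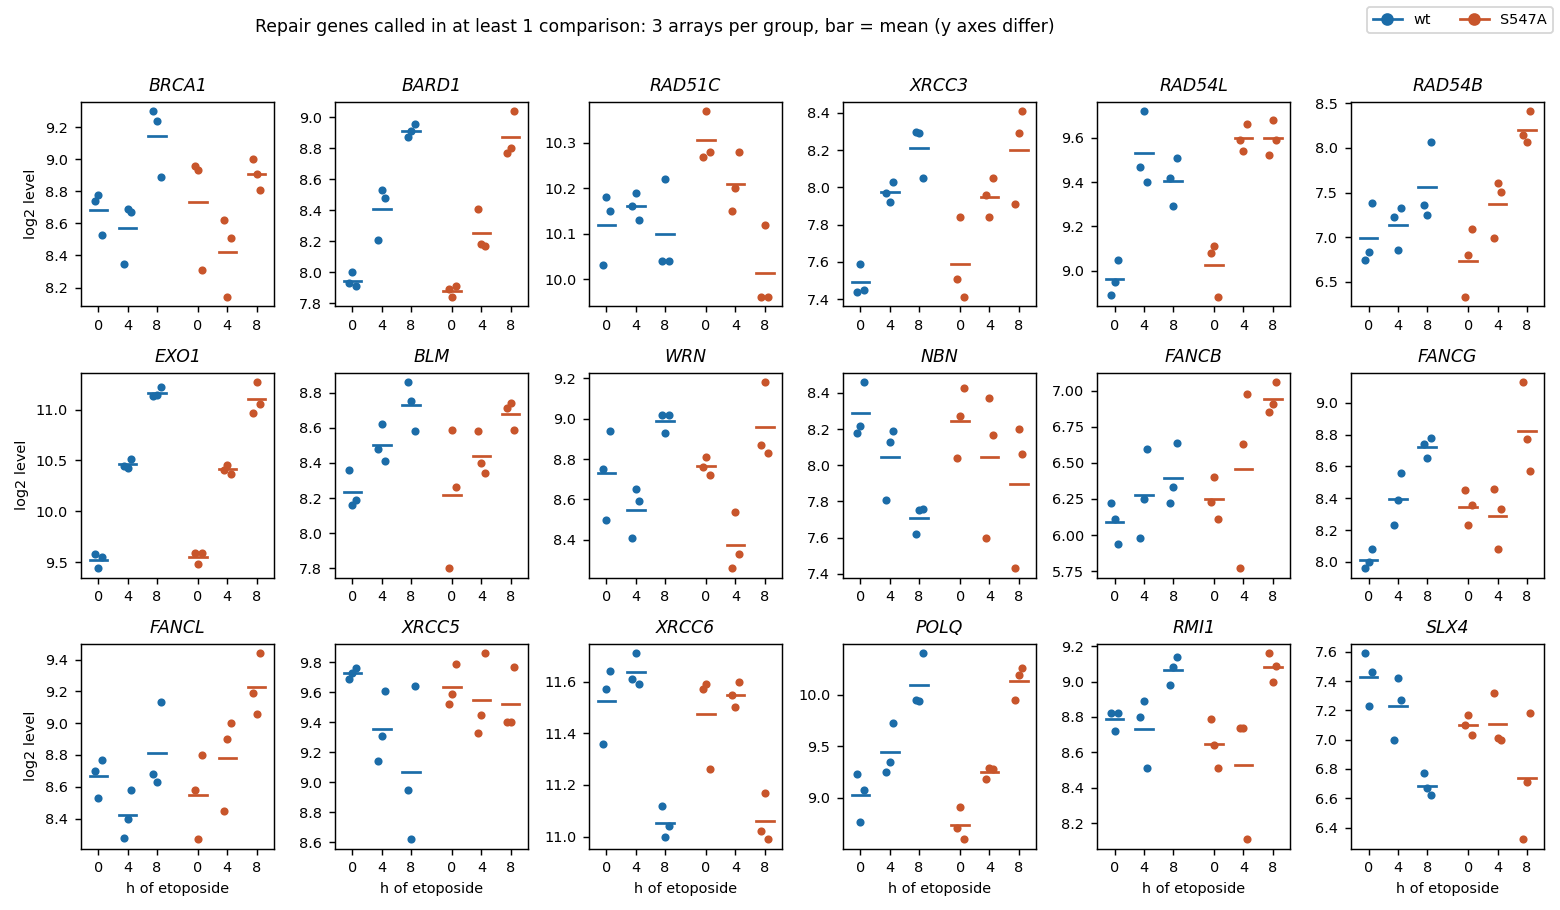
Log2 level (y axis, different range in each panel) of the 18 repair genes called in at least 1 comparison, on each array of untreated, 4 h and 8 h cells of the wt (blue) and S547A (orange) lines, with the group mean as a bar. EXO1, BARD1 and POLQ step up with time in both lines, XRCC6 drops at 8 h in both, and the 3 arrays of XRCC5 at 8 h in wt cells lie between 8.62 and 9.64.

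The genes called at 8 h in both lines and in the same direction were BARD1, XRCC3, RAD54L, EXO1, BLM, FANCG and POLQ, which rose, and XRCC6, which fell. These 8 are 72.7% of the wt calls and 61.5% of the S547A calls, beside 69.5% and 67.8% for the 2491 genes so called among all genes. Of the 30 genes, 28 had the same sign at 8 h in both lines, and the share over all genes was not computed. That count takes in changes that were not called, and BRIP1, which was not detected at 8 h. Each line was compared with its own untreated arrays, so the group means of these comparisons share no samples. The arrays were normalized together, and the spread of each gene was estimated from all groups. The calls in the lines are therefore not fully independent. With the compared groups fitted alone, BLM, FANCG and XRCC6 lost their S547A calls at 8 h (limma adjusted p = 0.133, 0.0769 and 0.074). Their wt calls at 8 h were kept in that fit.

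No repair gene was called between the lines. In the ranges that follow, a gene counts as detected in a group if 1 or more of its 3 arrays detected it. Among the genes detected in both groups compared (29 in untreated cells, 27 at 4 h and 28 at 8 h), the S547A minus wt difference ran from -0.33 (SLX4) to 0.37 (PALB2) in untreated cells, from -0.67 (LIG4) to 0.36 (FANCL) at 4 h and from -0.24 (BRCA1) to 0.65 (RAD54B) at 8 h, with smallest limma adjusted p-values of 0.802 (FANCG), 0.508 (LIG4) and 0.711. Calls over all genes were as rare, at 0.0415%, 0.083% and 0.108%. At an unadjusted p under 0.05, 1 gene differed in untreated cells (FANCG), 1 at 4 h (LIG4) and 4 at 8 h (RAD54B, FANCB, FANCL and XRCC5), against 746, 608 and 790 of all genes. RAD54B was higher in S547A cells at 8 h by 0.65 (95% confidence interval 0.12 to 1.17), FANCB by 0.54 (0.04 to 1.03), FANCL by 0.41 (0.03 to 0.79) and XRCC5 by 0.45 (0.00 to 0.90), none of them called after adjustment.

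The S547A response minus the wt response was called for 0 of the 30 genes at 4 h and at 8 h (0.0166% and 0.0249% of all genes), with 1 (FANCG) and 2 (RAD52 and RAD54B) at an unadjusted p under 0.05, against 674 and 897 genes in all. RAD52 was not detected in 2 of the 4 groups that enter its value. Among the genes detected in all 4 groups (27 at 4 h and 28 at 8 h), this response difference ran from -0.56 (LIG4) to 0.48 (FANCL) at 4 h and from -0.43 (PALB2) to 0.90 (RAD54B) at 8 h, with smallest adjusted p-values of 0.891 and 0.636. For RAD54B the 95% confidence interval at 8 h was 0.16 to 1.63. For EXO1 it was -0.40 to 0.22, for BARD1 -0.33 to 0.37 and for POLQ -0.18 to 0.80. A difference in level between the lines of more than a doubling lay outside the interval for 29 of these 29 genes in untreated cells, 26 of 27 at 4 h and 26 of 28 at 8 h, and a difference in response of that size for 21 of 27 at 4 h and 23 of 28 at 8 h. These counts include BRIP1 and LIG4 in untreated cells and FANCC in untreated cells and at 8 h, each detected on 1 or 2 arrays per group. The response count at 8 h also includes LIG4 and FANCC, whose untreated groups were so detected. The values of these genes there lie near background, so for them a doubling of the transcript is not excluded.

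**Figure D3:**
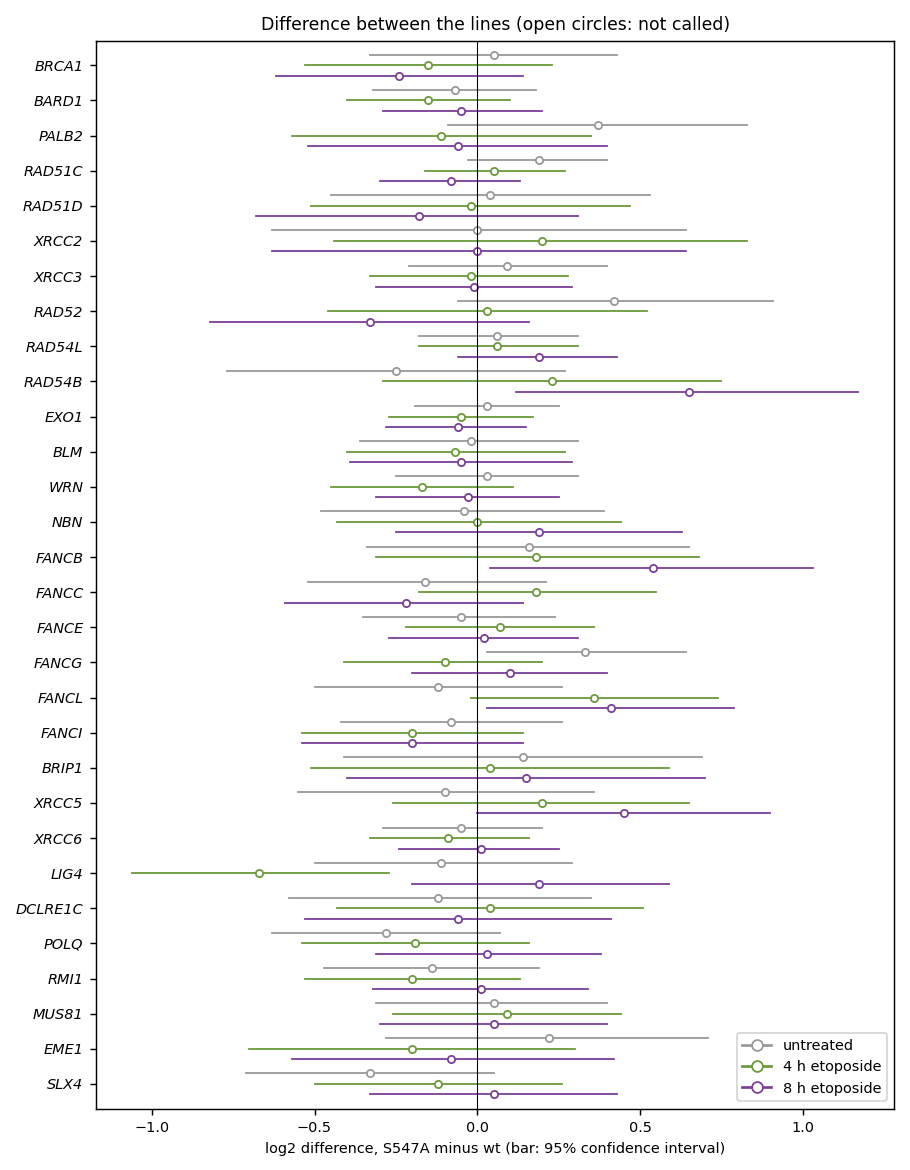
Log2 difference between S547A and wt cells (x axis, S547A minus wt) for each of the 30 repair genes in untreated cells (grey) and after 4 h (green) and 8 h (purple) of etoposide, with 95% confidence intervals. All circles are open, since no difference was called. RAD52, BRIP1, FANCC and LIG4 lie near background in some groups, and the difference farthest to the right is RAD54B at 8 h, at 0.65.

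Other genes of the same pathways, from a separate list of 54 with 46 tested, also changed at 8 h. In each line 21 rose and 2 fell, which is 50% called, against 29.7% of all genes in wt and 30.5% in S547A cells. Called higher were 16.5% and 16.1% of all genes. At 4 h 5 rose and 1 fell in wt cells, and 4 rose and 2 fell in S547A cells. That is 13% called in each line, against 10.4% and 9.51% of all genes. Their median change at 8 h was 0.33 in wt and 0.35 in S547A cells. PSMC3IP, a cofactor of strand exchange, rose at 8 h by 1.47 in wt and 1.18 in S547A cells (limma adjusted p = 3.18e-05 and 0.000247). SHLD1, a subunit of the shieldin complex that limits resection, rose by 1.47 and 1.14 (5.07e-06 and 6.5e-05). No test compared this list with the 30 genes.

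Cell cycle genes moved on the same arrays. Of 20 tested G1/S genes, 13 rose and 0 fell at 8 h in wt cells and 12 rose and 0 fell in S547A cells, with medians of 0.44 and 0.41; at 4 h 5 and 4 had risen. E2F2, a transcription factor of the E2F family, rose in wt cells by 0.89 and 1.63 at 4 h and 8 h and by 0.89 and 1.46 in S547A cells (limma adjusted p = 0.000575, 3.35e-07, 0.000668 and 1.04e-06). Of 20 G2/M genes, 14 fell and 0 rose at 4 h in wt cells and 11 fell and 0 rose in S547A cells, and at 8 h 10 fell and 2 rose in each line, with medians of -0.76 and -0.43 in wt and -0.66 and -0.44 in S547A cells. Beside both lists, 10.4% of all genes in wt and 9.51% in S547A cells were called at 4 h, and 29.7% and 30.5% at 8 h.

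The mean log2 level per array of the 30 repair genes was 7.91 to 8.02 in untreated wt cells, 8.03 to 8.11 at 4 h and 8.12 to 8.23 at 8 h, and 7.95 to 8.03, 7.98 to 8.09 and 8.17 to 8.28 in S547A cells. Over the same wt groups the G1/S genes averaged 9.89 to 9.95, 10.18 to 10.25 and 10.35 to 10.48, and the G2/M genes 9.81 to 9.83, 8.86 to 8.98 and 9.35 to 9.57. In S547A cells the G1/S genes averaged 9.88 to 9.92, 10.07 to 10.27 and 10.34 to 10.36, and the G2/M genes 9.73 to 9.79, 8.89 to 9.04 and 9.35 to 9.45. The repair and G1/S means were thus highest at 8 h, while the G2/M mean was lowest at 4 h. The part of the cell cycle in the changes of the repair genes was not tested.

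**Figure D4:**
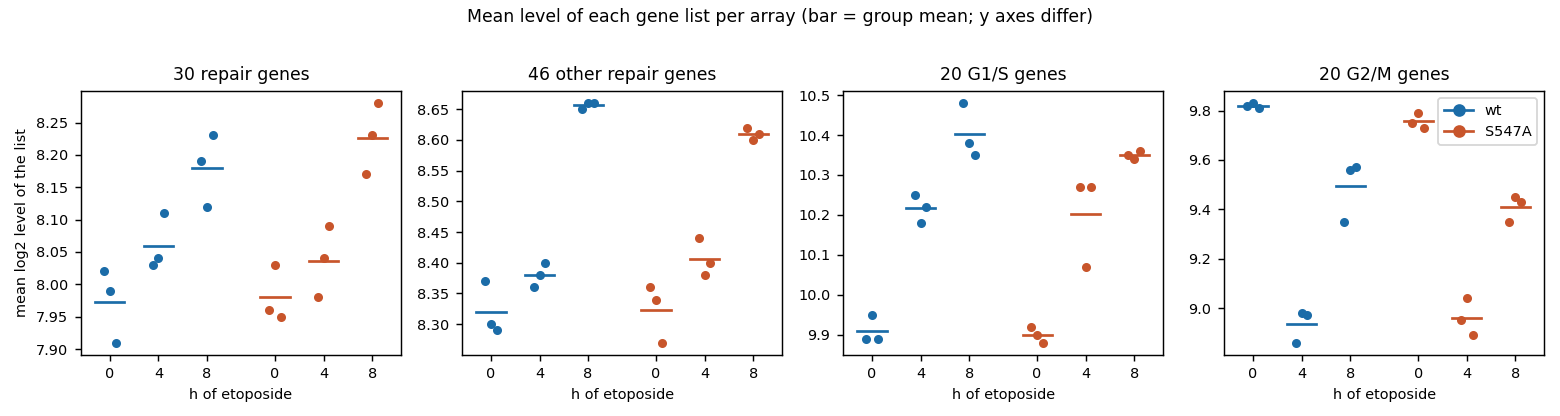
Mean log2 level (y axis, different range in each panel) of the 30 repair genes, 46 other repair genes, 20 G1/S genes and 20 G2/M genes on each array, by hours of etoposide in wt (blue) and S547A (orange) cells, with the group mean as a bar. The first 3 panels step up to 8 h in both lines, and the G2/M panel drops at 4 h and partly returns at 8 h.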

How the data were processed

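Total RNA was prepared by RNeasy Mini kit and amplified by the Illumina TotalPrep-96 kit, per the labels' protocols. For 47231 probes on 18 arrays the authors deposited an unnormalized linear intensity and a detection p-value, per the file headers; the submitters' processing notes name GenomeStudio. A second deposited table of intensities, which the authors had normalized between arrays, served as an alternative. Probe symbols came from the platform's annotation (30112 probes with 1 symbol, 8 with several, 17111 with none). No genome build is given in the sources used here for either table.

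From the deposited intensities, neqc of limma 3.58.1 in R 4.3.3 (offset 16) made background-corrected, quantile-normalized log2 values. A probe was kept if its detection p was under 0.05 on 3 or more arrays, and the brightest stood for each gene, giving 12055 genes. Group means of all 18 arrays were fitted in limma with no block (12 residual degrees of freedom), in 11 comparisons, two-sided, with p-values adjusted by Benjamini-Hochberg over all genes of a comparison and a threshold of 0.05. SE is the moderated standard error. The number of arrays limits the precision. Same-numbered arrays of S547A at 4 h and 8 h deviated together (correlations 0.129, 0.147 and 0.145), so a call that a block on the number changes there is given. The fit was tested on simulated data.

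The repair genes and the other gene lists were chosen with earlier results of these data known. Genes called with a log2 change of at least 0.58 in a called comparison are given on every array; called genes with smaller changes are given in less detail. Second probes are given where they differ in sign or in being called, with p-values adjusted over 16005 probes, and up to 2 called genes of each other list are named. Figures were drawn with matplotlib 3.10.9 in Python 3.11.15.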

Additional observations from a re-analysis of the deposited data

How the results depend on the processing

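The counts of repair genes called were recomputed under 11 other settings and without each of the 18 arrays, and 182 of 199 recomputed counts lay within 1.5 times the reported one. In wt at 4 h the count of 4 became 1 under median scaling. In S547A at 4 h the count of 2 became 4 under median scaling, a stricter detection filter (p under 0.01) and the mean of kept probes, 5 with every probe tested separately, and 1 with the compared groups fitted alone. Fitting the compared groups alone also gave 8 in place of 13 in S547A at 8 h, 2 in place of 6 in wt from 4 h to 8 h and 3 in place of 8 in S547A from 4 h to 8 h; such a fit has fewer arrays behind each spread, and over all genes it called 455 in place of 1146 in S547A at 4 h, 1066 in place of 1617 in wt and 672 in place of 1857 in S547A cells from 4 h to 8 h. Median scaling called 811 in place of 1256 genes in wt at 4 h and 1043 in place of 1857 in S547A cells from 4 h to 8 h; the cause was not tested. Without 1 array the counts ranged from 2 to 4 in wt at 4 h, 8 to 11 in wt at 8 h, 2 to 2 in S547A at 4 h, 8 to 10 in S547A at 8 h, 2 to 4 in wt and 5 to 8 in S547A from 4 h to 8 h, and 0 to 0 in the line comparisons and interactions. The count of wt at 4 h was 2 without untreated replicate 1 or 3 or 4 h replicate 2 or 3, that of wt from 4 h to 8 h was 2 without 4 h replicate 1 and 3 without 4 h replicate 2, and without S547A 8 h replicate 1 that of S547A at 8 h was 8 and that from 4 h to 8 h was 5. Of 44 pairs of gene and comparison called, 21 stayed called under every setting and 0 changed sign. Deviations of same-numbered arrays correlated at -0.0756 to 0.213, with 13 of 45 pairs over 0.1, and all 3 same-numbered pairs were over 0.1 in 1 of 15 pairs of groups, S547A at 4 h and 8 h; the numbers were not shown to pair the other groups, although 15 of 18 arrays correlated best with their own number, a hint from the data and not the design. With the replicate number as a block the counts were 4 and 13 in wt at 4 h and 8 h, 3 and 13 in S547A cells, 6 and 9 from 4 h to 8 h, and 0 in the line comparisons and interactions, and 0 of the 44 calls were lost. The calls gained were PALB2 and RAD54B in wt at 8 h (adjusted p 0.0475 and 0.0222), RAD54B in S547A at 4 h (0.0332) and FANCL in S547A cells from 4 h to 8 h (0.0316).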
